A study of Mus musculus with 16 samples.

Results

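The response of empty-vector 6DT1 cells to hydrogen peroxide (H2O2) was followed by RNA sequencing in 7 of the 16 libraries of the series. 6DT1 is a mouse mammary cancer cell line, labelled as strain FVB/N1. The cells had been transduced with a lentivirus carrying no insert (empty vector) or one for expression of CLIC4, a member of the chloride intracellular channel family, and were left untreated or given 1 µM H2O2 for 24 h. The comparison took the treated empty-vector libraries 13, 14, 15 and 16 and the untreated empty-vector libraries 9, 10 and 12, numbered as in the sample titles. The 8 libraries of CLIC4 lentivirus cells, 4 untreated and 4 treated, served for comparison. The sample descriptions call the empty-vector cells CLIC4 knockout and the lentivirus cells wild type. The design text names the vectors and no knockout. The labels name no separate cultures behind the libraries of 1 group, and p-values here cover the spread among these libraries, possibly technical. The labels do not say whether a transduced line is 1 clone or a pool.

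H2O2 is a diffusible oxidant that cells remove with catalase, peroxiredoxins and glutathione peroxidases. At higher oxidant load, cells commonly switch on the targets of the transcription factor NRF2, such as heme oxygenase 1, and stress programmes run by ATF4 and p53. Mitochondria are both a source and a target of peroxide, and their own small genome encodes 13 mRNAs, all for subunits of the respiratory chain and ATP synthase, which are read from long joint transcripts.

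Total counts ran from 51.9 M to 59.4 M in the 7 libraries. The fourth untreated empty-vector library, number 11, was left out because it stood apart from its group, a choice made with earlier results known. Its correlation with the other 3 over genes was at most 0.927, against at least 0.998 for the other 21 pairs of libraries within groups, and it held 0.635% of its counts on mitochondrial rRNA, against 0.0203% to 0.0240% in libraries 9, 10 and 12. No pair of libraries agreed within sampling noise (chi-square per degree of freedom of at least 4.79). Clic4 was present in all 7 libraries, at 42.4, 42.1 and 45.7 CPM (counts scaled to library size) untreated and 46.2, 42.7, 44.0 and 40.4 CPM treated, and at 227 to 263 CPM in the lentivirus libraries, where resident and transferred Clic4 cannot be separated. Library sizes were adjusted by edgeR's trimmed mean of M-values (TMM). Of the epithelial markers, Krt8 reached 581 to 652 CPM and Krt18 and Krt19 were also high, while 8 of 12 were under 1 CPM, among them Epcam, Cdh1 and Esrp1. The summed epithelial markers lay between 979 and 1020 CPM untreated and between 965 and 1059 CPM treated. Markers of immune cells summed to 230 to 261 CPM untreated and 237 to 267 CPM treated, nearly all from Cd68, while Ptprc was at 0. The 3 measured adipocyte markers summed to at most 0.0365 CPM, the fibroblast markers to 17.6 to 20.9 CPM and the endothelial markers to 11.0 to 12.1 CPM over the 7 libraries.

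After 24 h of H2O2, mitochondrial mRNA made up a larger part of the counts in each treated library. The 13 mitochondrially encoded mRNAs took 1.38%, 1.08% and 1.43% of all counts in libraries 9, 10 and 12, and 2.48%, 2.30%, 2.88% and 2.95% in the treated libraries 13, 14, 15 and 16. The 2 ranges do not meet. The means were 1.30% ± 0.188 (SD, n = 3) and 2.65% ± 0.312 (SD, n = 4), a 2.05-fold ratio and a difference of 1.36 percentage points. A two-sided exact permutation test gave p = 0.0571, the smallest p that 3 against 4 libraries allow. Library 11 stood at 2.41%, inside the treated range. With it the groups overlapped, the difference was 1.08 points and the exact permutation p was 0.0571.

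**Figure D1:**
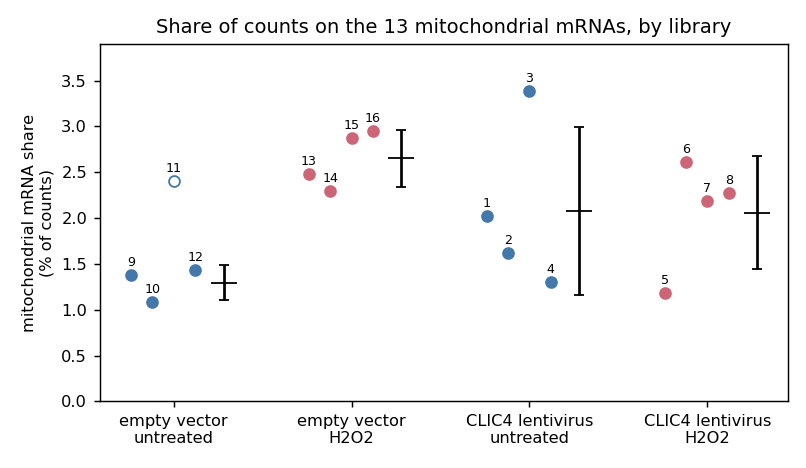
Percent of counts on the 13 mitochondrial mRNAs (y axis) in each library, by group; numbers are library numbers, bars are mean ± SD over filled points, and the open circle is library 11, which was left out. The treated empty-vector libraries lie at 2.30% to 2.95%, above libraries 9, 10 and 12, while the lentivirus groups overlap.

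In the lentivirus cells the same share varied widely but not with treatment. It was 2.02%, 1.62%, 3.38% and 1.30% in untreated libraries 1 to 4 and 1.18%, 2.61%, 2.18% and 2.27% in treated libraries 5 to 8, a difference of -0.0211 points (two-sided exact permutation p = 1). The response of the log2 share was 1.04 in empty-vector and 0.02 in lentivirus cells. The difference of 1.01 had a permutation p of 0.0265 over all 2450 exchanges of vector labels within each treatment. Such exchanges take the vectors as equal in untreated cells too, where the mean shares were 1.30% and 2.08%. The p is therefore not one for the difference of responses alone. Library 3 alone, untreated, had a higher share than any treated empty-vector library.

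Taken one by one, 12 of the 13 mitochondrial mRNAs were higher in all 4 treated libraries than in any of the 3 untreated ones. Non-overlapping groups with the treated libraries higher were found for 5.47% of all 14602 genes tested. mt-Co1, the catalytic subunit of cytochrome c oxidase (mitochondrial positions 5328 to 6872), stood at 4964, 3890 and 5636 CPM untreated and 10100, 8920, 11984 and 11832 CPM treated. mt-Cytb, the cytochrome b of complex III, went from 1903, 1498 and 1976 CPM to 3544, 3462, 4449 and 4468 CPM. mt-Nd5, a proton-pumping subunit of complex I, had 1129, 923 and 1187 CPM untreated and 2055, 1958, 2454 and 2527 CPM treated. Each of these groups was separated by a gap wider than the range of the untreated libraries.

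The complex I subunits encoded in mitochondria did not all move alike. mt-Nd4 had a log2 change of 1.16, mt-Nd4l 1.09, mt-Nd2 0.90 and mt-Nd1 0.86. mt-Nd6, the one mRNA among the 13 on the opposite strand, had the highest value, 1.21, at a level of 8.22, 5.62 and 9.96 CPM untreated against 19.5, 15.9, 18.5 and 19.4 CPM treated. mt-Nd3 had 44.1, 53.7 and 39.9 CPM untreated and 43.6, 40.4, 46.4 and 53.1 CPM treated, with overlapping groups and a log2 change of -0.00. Among the cytochrome c oxidase subunits, mt-Co2 (1.03) was near mt-Co1 (1.15), while mt-Co3 had a log2 change of 0.35. The ATP synthase subunits mt-Atp8 and mt-Atp6 had log2 changes of 0.85 and 0.68.

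**Figure D2:**
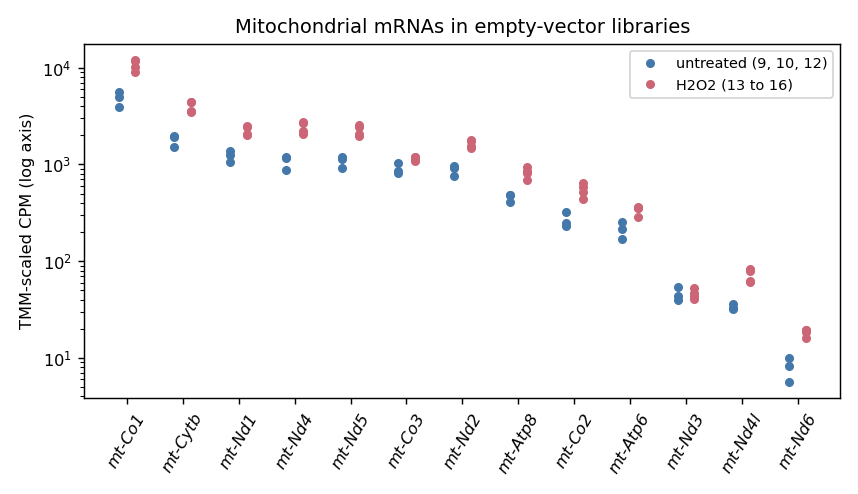
TMM-scaled CPM (log axis) of the 13 mitochondrial mRNAs in the 3 untreated and 4 treated empty-vector libraries, 1 point per library. All but mt-Nd3 have treated libraries above all untreated ones.

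None of the 13 was called in the main fit, which used edgeR's quasi-likelihood F test on 15 libraries with a mean for each of the 4 groups and called genes at a Benjamini-Hochberg adjusted p under 0.05. Of the 13, 10 had an unadjusted p under 0.05, and the adjusted p ran from 0.148 to 0.999. That fit shares its estimate of the spread with the lentivirus libraries, in which these mRNAs vary within groups (mt-Co1 from 4335 to 12127 CPM among untreated libraries). Fitted on the 7 empty-vector libraries alone, 11 of the 13 were called, with the exceptions of mt-Nd3 and mt-Atp6, where 1.41% of 13799 genes were called higher. The lowest adjusted p in that fit was 0.0108.

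The mitochondrial values carry a limit of mapping. The annotation holds 11 nuclear pseudogenes at least 95% identical to a mitochondrial mRNA, 7 of them next to each other on chromosome 1, and reads may be split between copy and original. Gm28661 (chromosome 1, 24614885 to 24615565, minus strand), identical over its length to mt-Co2, had 1844, 1461 and 2066 CPM untreated and 3891, 3322, 4692 and 4637 CPM treated, far above the CPM assigned to mt-Co2 itself, a gene of like length (251, 231 and 324 CPM untreated). Together the copies took 0.725% to 0.866% of counts untreated and 1.19% to 1.48% treated. Gm28438, the copy of mt-Nd3 on chromosome 1 (99.7% identical), named outside the rule, had 342, 314 and 307 CPM in libraries 9, 10 and 12, above mt-Nd3 itself. In treated libraries 13 to 16 this copy had 347, 355, 359 and 382 CPM, all above the untreated ones (log2 change 0.17, edgeR adjusted p = 0.145). The overlapping groups of mt-Nd3 thus cover only the reads assigned to mt-Nd3, and how reads were split was not tested. Added to the 13 mRNAs, the copies gave a difference of 1.92 points. The 2 measured mitochondrial rRNAs took 0.0203% to 0.0240% of counts untreated and 0.0327% to 0.0385% treated.

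Across the genome few genes changed, and by small amounts. Of 14602 genes tested, 18 rose (0.123%) and 17 fell (0.116%), with adjusted p between 0.0352 and 0.0488. All 35 had non-overlapping groups, 5 changed at least 1.5-fold and 3 at least 2-fold. The split was 20 higher and 10 lower when libraries were scaled by total counts alone, and 21 higher and 12 lower when mitochondrially encoded genes were dropped before scaling. At an unadjusted p under 0.05, 896 genes were higher (6.14%) and 1098 lower (7.52%).

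The count of calls rests on single libraries. The directions of the 35 did not change when any of the 7 libraries was left out, but non-overlapping groups fix that in advance. Leaving out library 9, 10, 15 or 16 left 0 calls by edgeR (1416, 1634, 1755 and 1879 genes at an unadjusted p under 0.05), leaving out library 12 left 8 and library 13 left 1, and leaving out library 14 gave 128. Library 14 was the treated library nearest the untreated group in 25 of the 35. With library 11 kept, edgeR called 0 genes in all 16 libraries (2120 at an unadjusted p under 0.05) and 30 of the 35 had the same sign. DESeq2 on the 15 libraries called 417, including all 35, and edgeR on the 7 libraries alone called 195 higher (1.41%) and 134 lower (0.971%), including 32 of the 35. All further values of single genes are from the 15-library edgeR fit unless another is named.

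Among the genes that rose, Myc, the transcription factor that drives growth and ribosome production (chromosome 15, 61985391 to 61990374), was among those with the smallest adjusted p. It had 819, 861 and 861 CPM in untreated libraries 9, 10 and 12 and 991, 1009, 1015 and 967 CPM in the treated ones. Its log2 change was 0.23 (standard error 0.04, edgeR adjusted p = 0.0352), and the treated libraries all lay above the untreated ones. Library 11 held 203 CPM of Myc. In lentivirus cells Myc ran from 590 to 649 CPM untreated and from 602 to 667 CPM treated, with a log2 change of 0.04.

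Other risers differ in known role. Kmt5c, a histone H4 lysine methyltransferase of heterochromatin (chromosome 7, 4740115 to 4747514), had 27.7, 28.5 and 28.3 CPM untreated and 33.5, 34.6, 37.2 and 36.1 CPM treated (log2 change 0.33, edgeR adjusted p = 0.0352). Wsb1, the substrate receptor of a ubiquitin ligase (chromosome 11, 79239372 to 79254671), had 87.1, 86.3 and 91.4 CPM untreated and 105, 103, 116 and 124 CPM treated (log2 change 0.35, adjusted p = 0.0352). Libraries 15 and 16, with the highest mitochondrial shares, also had the highest Wsb1. Rab24, a small GTPase linked to autophagy (chromosome 13, 55319743 to 55321946), went from 46.6, 46.6 and 49.2 CPM to 57.1, 54.3, 55.3 and 56.3 CPM (log2 change 0.23, adjusted p = 0.0352). Gramd1a, a sterol carrier of the endoplasmic reticulum, had 71.3, 72.6 and 78.0 CPM untreated and 85.1, 84.5, 91.5 and 85.4 CPM treated. Library 15 lies apart in that gene. With library 11 kept, the log2 changes of Wsb1 and Gramd1a were -0.05 and -0.12, since library 11 held 182 and 140 CPM of them.

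The largest log2 changes among risers with a regular symbol belonged to genes at low levels. Dleu2, the long noncoding host transcript of miR-15a and miR-16-1, had 4.31, 4.53 and 4.37 CPM untreated and 5.80, 5.73, 6.94 and 7.08 CPM treated, a log2 change of 0.54 (standard error 0.11). Zfp579, a zinc finger protein, had a log2 change of 0.49 and Ankrd24, an ankyrin repeat protein, 0.40. Paxbp1, a nuclear partner of PAX proteins, had 27.1, 25.9 and 26.7 CPM against 32.4, 31.2, 35.3 and 34.9 CPM. These 4 had edgeR adjusted p between 0.0408 and 0.0474. No more than 9 risers met the naming rule, which asked for a regular symbol and an average log2 CPM of 2 or more.

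The other 9 risers were clone-named transcripts, several of them noncoding or pseudogenes. All but Gm11632, Gm5069 and 2700099C18Rik are named outside the rule, after their values were seen. Gm11632 had 1 count in the 3 untreated libraries and 98 in the 4 treated ones, a ratio of 72.1 with an exact 95% counting interval of 12.6 to 2875 that covers counting error only. Of the treated counts, library 14 held 3 and library 16 held 39. In the lentivirus libraries, treated or not, Gm11632 ran from 1.12 to 1.96 CPM, above the 0.0529 to 0.704 CPM of the treated empty-vector libraries. Gm5069 had 8 counts untreated and 73 treated. Gm38393 (log2 change 0.85), 3110039I08Rik (0.85), Gm15760 (1.06), Gm26947 (0.58), A230050P20Rik (0.42), 2700099C18Rik (0.42) and 2700081O15Rik (0.20) made up the rest. Gm26947 is annotated as antisense; whether counting used strand is not stated.

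**Figure D3:**
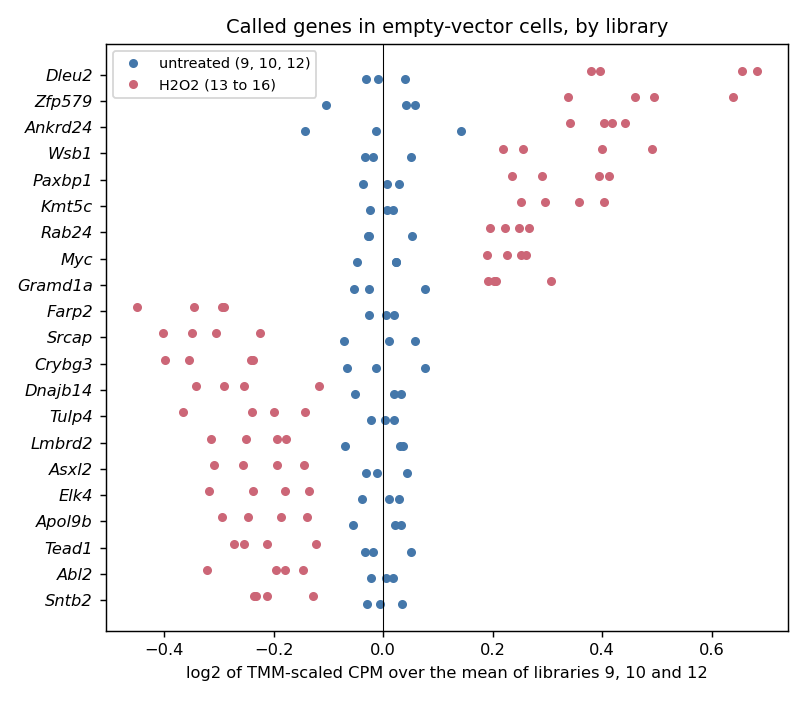
Log2 of TMM-scaled CPM over the mean of libraries 9, 10 and 12 (x axis) for the 9 rising and 12 falling genes named by the rule, 1 point per library. Treated and untreated libraries are separate in each gene, as the rule required, and most changes are under 0.4 on the log2 scale.

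All 17 genes that fell were protein-coding, and 12 of them have a transcript of at least 8000 bases. Srcap, the ATPase of a complex that deposits the histone variant H2A.Z (chromosome 7, 127511983 to 127561219), had 70.2, 68.0 and 64.2 CPM untreated and 51.1, 57.7, 54.6 and 52.9 CPM treated. Its log2 change was -0.32 (standard error 0.06, edgeR adjusted p = 0.0352). Asxl2, a scaffold of a histone deubiquitinase complex, fell by 0.22 on the log2 scale (adjusted p = 0.0471), and Cbx5, heterochromatin protein 1 alpha, named outside the rule, had 339, 330 and 323 CPM untreated and 293, 304, 283 and 290 CPM treated. Its treated libraries all lie below its untreated ones.

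The transcription factors Tead1 and Elk4 were among the fallers. Tead1, the partner of YAP in the Hippo pathway (chromosome 7, 112679318 to 112906807), had 156, 149 and 147 CPM untreated and 130, 138, 126 and 125 CPM treated (log2 change -0.21, adjusted p = 0.0352). Elk4, an ETS factor that acts with serum response factor, had 58.6, 59.4 and 56.7 CPM against 51.4, 53.0045, 49.4 and 46.7 CPM. Library 14 was the treated library closest to the untreated ones in both genes.

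Other fallers differ in known role. Farp2 (chromosome 1, 93512079 to 93621976), had the lowest log2 change of the 17, from 12.4, 12.1 and 12.5 CPM to 9.72, 10.1, 10.1 and 9.04 CPM (log2 change -0.34, adjusted p = 0.0408). Abl2, a cytoplasmic tyrosine kinase, had 202, 198 and 204 CPM untreated and 178, 182, 176 and 161 CPM treated. Sntb2, a syntrophin of the dystrophin complex, fell by 0.20 on the log2 scale, Tulp4 by 0.23, Lmbrd2 by 0.23 and Crybg3 by 0.31. Dnajb14, a J-domain co-chaperone of the endoplasmic reticulum, fell by 0.25, but with library 11 kept its log2 change was 0.03. Ddr2, a collagen receptor kinase, Ankfy1, an endosomal protein, Luzp1 and 2610507B11Rik completed the set, with log2 changes between -0.19 and -0.14, and are named outside the rule apart from Luzp1.

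Apol9b, an apolipoprotein L gene that interferon induces, was the one faller under 2000 bases of transcript. It had 36.0, 33.9 and 35.8 CPM untreated and 29.7, 28.7, 32.0 and 30.9 CPM treated (chromosome 15, 77729039 to 77736382, log2 change -0.22, edgeR adjusted p = 0.0352). Library 11 held 7.12 CPM of it, and with that library kept the log2 change was 0.09.

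Promoters of the called genes were searched on both strands for the letters of an interferon-stimulated response element (GAAANNGAAA), an E-box, the element that MYC and related factors bind (CACGTG), and an antioxidant response element, the element that NRF2 binds (TGACNNNGC). The windows ran from 250 bases before to 50 bases after each start in RefSeq (GRCm38.p6), and 10 of 18 risers and 15 of 17 fallers had an entry. The interferon letters were in 4 of the 15 fallers, in 0 of the 10 risers and in 3.73% of 10270 tested genes with an entry. The E-box letters were in 4 of 10 risers, 3 of 15 fallers and 11.7% of genes, and the antioxidant letters in 2 of 10, 1 of 15 and 16.8%. A match describes letters only. The matches are shown on the strand of the gene with the match in capitals, so that a reader can compare the 4 fallers with interferon letters and then 4 stretches of risers with E-box letters.
Apol9b, chr15:77729025-77729054 (+): gaggtgagacTTTCAGTTTCcatttcccag
Cbx5, chr15:103215463-103215492 (-): agtctgcagtGAAAAGGAAAgttaagcctt
Elk4, chr1:132008281-132008310 (+): caggaagttgGAAAGTGAAAgtgctttctt
Lmbrd2, chr15:9140590-9140619 (+): tgggagcaggtTTTCCTTTTCccggagctc
Dleu2, chr14:61682534-61682563 (-): ttcccgagagggCACGTGacggggttggca
Rab24, chr13:55321961-55321990 (-): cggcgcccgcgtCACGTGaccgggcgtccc
Wsb1, chr11:79254897-79254926 (-): aaagggattaagCACGTGaaacgtctactt
Gm26947, chr10:60931933-60931962 (+): cccgcacacgcgCACGTGcacacgatatta
Apol9b holds a second, overlapping match, and Wsb1 a second E-box match that is not shown. Apol9b and Lmbrd2 carry the interferon letters on the opposite strand. In Rab24 the antioxidant letters overlap the E-box. Cbx5 and Elk4 match at a start other than the one farthest upstream.

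The genes known to answer oxidants and stress did not pass the test at 24 h. Of the 10 such genes chosen for naming, log2 changes ran from -0.05 to 0.08 and the smallest adjusted p was 0.349. Hmox1, heme oxygenase 1, had 35.7, 34.0 and 42.3 CPM untreated and 43.5, 33.9, 41.5 and 31.7 CPM treated, with overlapping groups. Cat, catalase, had 73.0, 76.8 and 76.3 CPM untreated and 81.1, 79.6, 77.4 and 77.3 CPM treated, the one gene of the 10 whose groups did not overlap (log2 change 0.07, edgeR adjusted p = 0.349). Nqo1 (0.08), Txnrd1 (-0.04), Gclm (-0.05), Sod2 (-0.04), the cell cycle inhibitor Cdkn1a (-0.05), Atf4 (-0.01), Ddit3 (-0.03) and Gdf15 (0.07) had overlapping groups. Of 26 NRF2 targets, 0 were called, where 0.123% of all genes tested were called higher and 0.116% lower. At an unadjusted p under 0.05, 1 was higher and 3 lower, against 6.14% and 7.52% of all genes. The median log2 change of the NRF2 targets was -0.01, with -0.01 over all genes tested.

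No fixed list had a called member other than Myc, one of 26 immediate early genes. With 0.123% of all genes tested called higher and 0.116% lower, lists of this size leave few calls to be found. None of 29 ATF4 targets, 21 unfolded protein response genes, 18 p53 targets or 17 heat shock genes was called, with medians of -0.05, -0.01, -0.04 and -0.02. Nuclear genes for mitochondrial proteins had medians near 0. These were -0.04 for 37 nuclear complex I genes, -0.02 for 38 of complexes II to V, -0.03 for 65 mitochondrial ribosomal proteins and -0.01 for 32 genes of mitochondrial transcription and RNA handling, with 0 called. Fewer cells of a kind and less RNA per cell cannot be told apart in these bulk libraries.

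Interferon-stimulated genes had more members lower at an unadjusted p under 0.05 than the other fixed lists. Of 24 measured, 0 were called and 10 were lower at that threshold, which 7.52% of all genes passed. The log2 change was negative in 22 of the 24, and in 8158 of all 14602 genes. The 28 DNA replication genes all had negative log2 changes, from -0.18 to -0.04, with 0 at an unadjusted p under 0.05. Their median log2 change was -0.09, and 0 had treated libraries all below the untreated ones, against 7.31% of all genes. For the interferon-stimulated genes the median was -0.12, and 4 had treated libraries all below the untreated ones. Parp14, an ADP-ribosyltransferase, had 43.5, 40.1 and 42.4 CPM untreated and 36.2, 37.0, 35.04 and 36.1 CPM treated (log2 change -0.22, edgeR adjusted p = 0.0714), chosen after its value was seen. Isg15, a ubiquitin-like modifier chosen in the same way, had 29.0, 25.4 and 22.9 CPM against 18.8, 18.6, 24.1 and 22.2 CPM, with overlapping groups. Library 9 was the highest of the untreated libraries over the interferon-stimulated genes. In lentivirus cells the median of these interferon-stimulated genes was 0.02, and with the share as a covariate their empty-vector median was -0.15.

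The relation of these genes to the mitochondrial mRNA share was then measured. In the empty-vector libraries the share is low in all 3 untreated and high in all 4 treated libraries, so treatment and share cannot be told apart there. In the lentivirus libraries the share covers an overlapping range in both treatments. The slope of each gene on the log2 share, the log2 change per doubling of the share among libraries of 1 group, was therefore estimated in 15 libraries with a mean for each group. It was positive and past the threshold for 123 genes (0.843%) and negative for 27 (0.185%) of 14587, mitochondrially encoded genes left out. The count rests in part on library 3: without it 29 were called. In the 7 empty-vector libraries alone 2 were called.

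Estimated in the 8 lentivirus libraries alone, the slopes shared no library with the empty-vector response. Of the 35 called genes, 31 had a lentivirus slope of the same sign as their response to H2O2. For the genes called with the 7 empty-vector libraries alone, apart from the nuclear copies and those with no slope, 302 of 309 did. Over all 13113 genes the same held for 60.1%. Pearson's r between slope and response was 0.310 over these 13113 genes and Spearman's rank correlation 0.300. Across the 8192 genes whose average log2 CPM was 4 or more they were 0.639 and 0.398, and across the 35 called genes -0.138 and 0.624. These are descriptions across genes, which are not independent replicates.

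**Figure D4:**
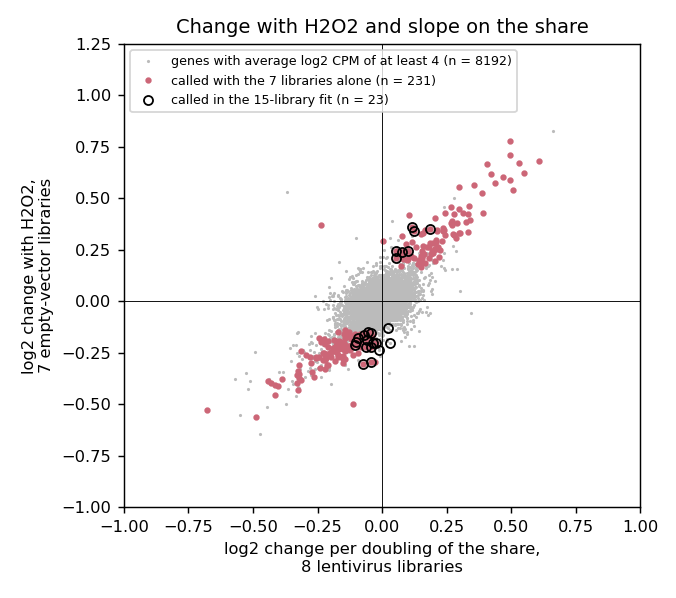
Log2 change per doubling of the mitochondrial mRNA share in the 8 lentivirus libraries (x axis) against the log2 change with H2O2 in the 7 empty-vector libraries (y axis) for 8192 genes (average log2 CPM of 4 or more). Of these, most of the 231 called with the 7 libraries alone (red) lie along a rising diagonal, and 23 called in the 15-library fit (black rings) lie close to its centre.

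Genes called with the 7 libraries alone show the relation most clearly, and the following were chosen after their values were seen. Rsrp1, an arginine and serine rich protein, had 113, 108 and 123 CPM untreated and 178, 161, 187 and 203 CPM treated (log2 change 0.68 and edgeR adjusted p = 0.0108 with the 7 libraries). In lentivirus cells Rsrp1 had 177, 157, 279 and 160 CPM in untreated libraries 1 to 4 and 129, 205, 188 and 179 CPM in treated libraries 5 to 8. Its highest value is in library 3 and its lowest in library 5, which are also the highest and the lowest in the share. Clk1, a kinase of splicing factors, had 82.7, 77.2 and 88.4 CPM untreated and 118, 107, 125 and 135 CPM treated, and in lentivirus cells 113, 106, 154 and 107 CPM untreated and 99.5, 125, 120 and 116 CPM treated. Arglu1, Pnisr, Ccnl2, Srsf5, Luc7l3 and Clk4 had 7-library log2 changes of 0.62, 0.67, 0.60, 0.43, 0.43 and 0.39. In the 15-library fit the adjusted p of these 8 genes lay between 0.0965 and 0.209, and none was called.

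In the other direction Brca2, which mends DNA breaks by homologous recombination, had 39.9, 42.6 and 41.1 CPM untreated and 30.9, 35.6, 30.6 and 32.1 CPM treated, with a log2 change of -0.35 (15-library edgeR adjusted p = 0.165; 0.0124 with the 7 libraries alone). Its slope was -0.32 per doubling of the share (adjusted p = 0.0096). In lentivirus libraries 1 to 8 it had 18.0, 24.7, 18.8, 25.2, 27.1, 21.5, 23.1 and 21.3 CPM, so that library 5, with the lowest share, was highest. Stard9, a kinesin, had a slope of -0.36 and Zmat5, a spliceosome protein, one of -0.29. The 3 positive slopes with the smallest adjusted p were of the nuclear copies Gm28661, Gm10222 and Gm29216. Slc25a37, the mitochondrial iron importer, named outside the rule, was the one member of the iron handling list with a called slope (0.28).

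With the log2 share as a covariate, edgeR called 0 genes for H2O2 (687 at an unadjusted p under 0.05), and the smallest adjusted p was 0.365. All 35 kept their direction and 30 had a smaller change, with the median size going from 0.25 to 0.18 on the log2 scale. Over all 14602 genes tested, 10635 kept their direction and 6674 had a smaller change. The 35 had been picked by the fit without the covariate. The 7-library risers went from a median of 0.42 to 0.10 and the fallers from -0.24 to -0.08. The mitochondrial mRNAs went from a median of 1.03 to -0.15, as the covariate is built from them. Wsb1 stood at 0.20 with the covariate, Kmt5c at 0.20, Myc at 0.15, Srcap at -0.24, Lmbrd2 at -0.20 and Tead1 at -0.18, none of them called. Apol9b had a larger fall, -0.27 (edgeR adjusted p = 0.365), and Luzp1 stood at -0.16. Irgm2, an interferon-induced GTPase, was at -0.36 with the covariate and -0.23 without it, and Bard1 was at -0.56 with it and -0.20 without it, where its groups overlap. Naaladl1 had 0.289, 0.294 and 0.285 CPM untreated and 0.130, 0.0353, 0.185 and 0.217 CPM treated, a level of few counts, with log2 changes of -3.00 with the covariate and -1.02 without it. Gm12969 had 0 counts untreated and 44 treated, of which library 15 held 3. The ratio is 10.8 if the untreated group is set to a floor of 3 counts. The exact 95% counting interval of the ratio starts at 8.41 and has no upper end. Gm12969 was not called with the covariate (edgeR adjusted p = 0.365) or without it (0.172). Gm4335 and Rpl31-ps8 had log2 changes of 2.26 and 0.35 with the covariate and 1.51 and 0.18 without it.

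The fallers had a longer median transcript than all genes tested, with overlapping lengths. The median length of the longest annotated transcript was 8803 bases in the 17 fallers, 3070 in the 18 risers and 3055 over all genes tested. The median span of the gene was 82.1 kb, 10.8 kb and 19.0 kb. Apol9b (1573 bases), Farp2 (3937) and Elk4 (4433) were among the shorter fallers. Of 697 genes of 8000 bases or more, 12 fell and 0 rose, and 108 were called lower with the 7 libraries alone, or 15.5%, against 0.971% of all genes. Their median log2 change was -0.13 in empty-vector cells, -0.04 with the share as a covariate and 0.08 in lentivirus cells. The median slope of this class on the share was -0.09. Transcripts under 1000 bases had a median log2 change of -0.01 in empty-vector cells and -0.09 in lentivirus cells.

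**Figure D5:**
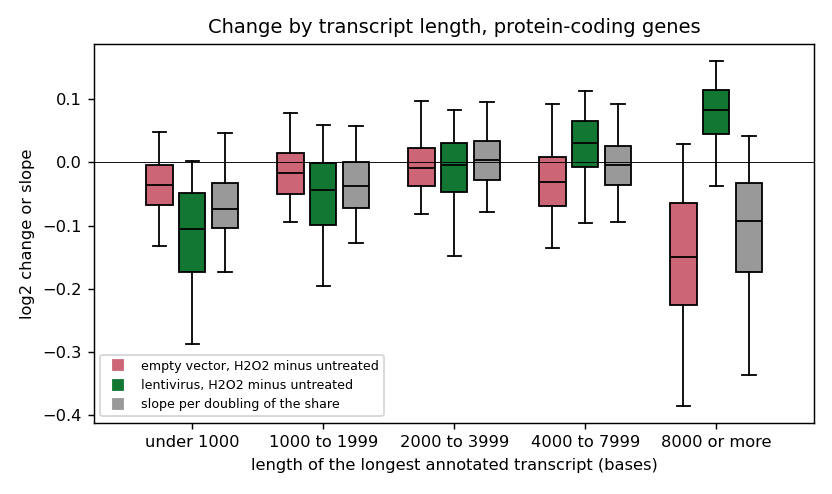
Log2 change with H2O2 in empty-vector and lentivirus cells, and slope per doubling of the mitochondrial mRNA share (y axis), by transcript length class for protein-coding genes (average log2 CPM of 4 or more); boxes are quartiles, the line the median, whiskers the 5th and 95th percentiles over genes. In the class of 8000 bases or more the medians are -0.15, 0.08 and -0.09.

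In lentivirus cells, given the same dose, edgeR called 0 genes in the same fit (2135 at an unadjusted p under 0.05). Of the 35 genes called in empty-vector cells, 12 had the same sign there and none was called. Over all 14602 genes tested, 6993 had the same sign. The difference of the 2 responses was tested itself and was called for 28 genes (0.192%). Of those more negative in empty-vector cells, the 3 with the smallest adjusted p were Srcap, with a difference of -0.49 (edgeR adjusted p = 0.0238), Tead1, with -0.34, and Erc1, an active zone and cell edge scaffold, with -0.28. Srcap ran from 57.6 to 62.6 CPM untreated and from 63.2 to 75.7 CPM treated in lentivirus cells, so that the treated libraries were the higher ones there. Of those more positive, the 3 with the smallest adjusted p were 2700099C18Rik (0.79), 1810022K09Rik (0.39) and Timm21, a subunit of the mitochondrial protein import machinery (0.31). Timm21 itself was not called in empty-vector cells, at 27.9, 30.9 and 29.5 CPM untreated and 33.7, 31.9, 32.1 and 33.5 CPM treated. The log2 share itself had a response of 1.04 in empty-vector and 0.02 in lentivirus cells, a difference that was not tested alone. With the share as a covariate the difference of the 2 responses was called for 0 genes (1596 at an unadjusted p under 0.05). Leaving out 1 library gave between 0 calls (library 1, 7, 9 or 15) and 170 (library 2), and with library 11 kept there were 0 (859 at an unadjusted p under 0.05).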

How the data were processed

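RNA of 6DT1 cells was extracted with a Qiagen RNeasy kit and sequenced on Illumina libraries, per the labels' protocols. The submitters' processing notes list cutadapt (read trimming), STAR (alignment), RSEM (quantification) and the build mm10, with versions, annotation and strand setting not given in the sources used here. Groups came from sample titles. The authors' deposited counts are whole numbers for 25745 genes, perhaps rounded from RSEM's expected counts. The deposited FPKM values (25372 genes) are scaled by the authors to length and depth.

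edgeR 4.0.16 (R 4.3.3) was fitted robustly on 15 libraries after filterByExpr (14602 genes kept) and TMM scaling; the biological coefficient of variation was 5.28% (23.1% with library 11). Standard errors were the log2 change over the root of F. Alternatives were DESeq2 1.42.0, limma 3.58.1 on log2(FPKM + 1) or log2(FPKM + 0.1), voom with quality weights, other scalings and filters, the mitochondrial mRNA share as covariate, and leaving out each library. The share with nuclear copies and the slope in lentivirus libraries alone were added after seeing the data. The fit was also run on counts simulated independently for each gene. Those counts hold no component shared by genes within a library, so the run does not cover the relation to the share. Nuclear copies have at least 95% identity over at least 80% of their length. Positions and lengths are from GENCODE vM21 (mm10), where all 25745 symbols matched, 53 of them with more than 1 gene ID. Counting intervals cover counting error only.

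The libraries, lists and tests were chosen with earlier results of these data known. Named genes were the 12 rising and 12 falling most among called genes with non-overlapping groups, an average log2 CPM of at least 2 and a regular symbol. The rule added the 5 smallest adjusted p per direction with the covariate, up to 3 called members of a list, 10 oxidant and stress genes, the mitochondrial mRNAs and Clic4, and the 3 smallest adjusted p per direction for slope and difference. Genes outside the rule are said to be so. Figures were drawn with matplotlib 3.10.9.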

Additional observations from a re-analysis of the deposited data

Results flagged for a closer look

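Library 11 held 0.635% of its counts on mitochondrial rRNA, far from the other 3 untreated empty-vector libraries, as described above. Within the 4 treated empty-vector libraries, Gramd1a in library 15 stood apart, with a gap to its nearest neighbour of 0.877 of the whole range, and mt-Atp6 in library 14 was low, with a gap of 0.933 of the range; the limit for 4 libraries is 0.829. Chance flags about 1 in 20 groups, and 69 were looked at.

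For the mitochondrial mRNA share, the measured response to H2O2 was 1.01 higher on the log2 scale in empty-vector than in lentivirus cells, a difference not tested alone. The permutation p of 0.0265, from exchanges of vector labels within each treatment, also covers a difference between vectors in untreated cells. By edgeR's test of the difference (adjusted p under 0.05), the response was higher in empty-vector cells for Gm38393 (1.05), 2700099C18Rik (0.79), Wsb1 (0.40), 1810022K09Rik (0.39), Timm21 (0.31) and Rab24 (0.27). It was lower for Srcap (-0.49), Tead1 (-0.34), Tulp4 (-0.32), Asxl2 (-0.32), Elk4 (-0.31), Erc1 (-0.28), 2610507B11Rik (-0.22), Ankfy1 (-0.22) and Luzp1 (-0.20). None of these gene differences was called with the share as a covariate.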

How the results depend on the processing

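No paired analysis was possible because the groups share no library numbers. The 35 calls for H2O2 became 48 with RLE size factors, 30 with total counts and 33 without mitochondrially encoded genes. They became 329 with the 7 libraries alone, 417 with DESeq2, 168 with no filter, 121 with voom quality weights and library 11 kept, and 8 with a filter of 10 CPM in 3 libraries. They became 0 with library 11 kept in 16 or in the 8 empty-vector libraries (2120 and 432 at an unadjusted p under 0.05), with the share as covariate (687) or the share with nuclear copies (664), and with limma on log2(FPKM + 1), on log2(FPKM + 0.1) or unfiltered (1571, 1578 and 2126). Leaving out 1 library gave 0 to 128. With library 11 kept in 16 and in 8 libraries, the log2 change was -0.0494 and -0.0790 for Wsb1, -0.117 and -0.145 for Gramd1a, 0.0304 and 0.0344 for Dnajb14, and 0.0948 and 0.101 for Apol9b, against the direction without it; the cause was not tested.

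The 150 slope calls became 2 in the 7 empty-vector libraries and 27 with library 11 kept, and 29 to 216 with 1 library left out. The 28 calls for the difference became 491 with DESeq2, 166 with no filter, 6 with the 10 CPM filter and 0 with library 11 kept (859 at an unadjusted p under 0.05), limma on log2(FPKM + 1) (1923) or the covariate (1596), and 0 to 170 with 1 library left out. The share difference was 1.248 to 1.47 points with 1 library left out, and 3.38 points of summed FPKM.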
